A study of Mus musculus with 12 samples.

Results

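The 37 genes described here encode nuclear subunits of the last 3 proton-handling machines of the mitochondrial inner membrane, namely complex III (cytochrome bc1), complex IV (cytochrome c oxidase) and complex V (ATP synthase), together with cytochrome c. They were chosen by name, with earlier results of these data known. All 37 were found by Ensembl symbol among the 54751 features of the table, with the row of the higher mean taken for Atp5o, which has 2. They comprise 10 genes of complex III and cytochrome c, 12 of complex IV and 15 of complex V, of which 5 encode the catalytic head and 10 the membrane part with its peripheral stalk. All 37 passed the filter on low values, with mean normalised counts from 129.9 to 34550.

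Total RNA from whole hearts of C57BL/6N mice aged 52 weeks was sequenced after depletion of ribosomal RNA, with cDNA primed at random. Control hearts (3 libraries) have the genotype Rexo2loxP/loxP, in which both Rexo2 alleles carry loxP sites. Hearts labelled knockout (3 libraries) are written Rexo2loxP/loxPloxP/loxP, +/Ckmm in the sample labels and Rexo2loxP/loxP, +/Ckmm in the series text. They thus share the loxP alleles with the controls and add an allele named Ckmm, after the muscle creatine kinase gene, from whose promoter Cre lines express the recombinase in striated muscle. Any effect of the Ckmm allele itself and of losing Rexo2 cannot be told apart, and other cell types of a whole heart may keep the gene. REXO2 is an exonuclease that degrades very short RNA in mitochondria and cytosol. The series also has 3 libraries per group of RNA ends from heart mitochondria, which are not analysed here. The labels tie no library to its own animal, so p-values measure the spread between these libraries, which may be partly technical.

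Depth ranged from 41979163 to 50764023 reads per library, of which mtDNA features held 69.4% to 70.0% in control and 71.5% to 71.9% in knockout-labelled hearts, without overlap. For Rexo2 itself, control 490, 498 and 502 held 330, 368 and 293 normalised counts, and knockout-labelled 492, 499 and 501 held 274, 288 and 314, with overlap. Which exons the loxP sites flank is not stated in the labels, so this count per gene does not check the genotype. Control 490 stood apart on the first principal component, at -30.1 where the others lay from -5.63 to 16.7. The 8 cardiomyocyte markers summed to 539929 to 580211 in control and 530249 to 560869 in knockout-labelled hearts, and the 6 skeletal muscle markers to 13.2 to 24.4 and 16.9 to 26.8. Summed markers of endothelium (7 genes), fibroblasts (7), macrophages (8), smooth muscle (4), red cells (5) and adipocytes (4) also overlapped between the groups, and 1 adipocyte and 1 skeletal muscle marker were at 0 throughout. In bulk tissue, fewer cells of a type and less RNA per cell cannot be told apart.

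Electrons reach complex III from ubiquinol, pass through the Rieske iron-sulfur protein and cytochrome c1 to soluble cytochrome c, and are handed by complex IV to oxygen. Complexes III and IV pump protons in doing so, and ATP synthase lets them return through a ring of c subunits that turns a central stalk inside a head of alternating alpha and beta subunits. Each of the 3 complexes also has subunits encoded by mitochondrial DNA (mtDNA), so that their assembly draws on both genomes. The heart, which depends on oxidative metabolism, expresses muscle isoforms of several complex IV subunits.

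The gene of the ATP synthase alpha subunit, Atp5a1, stood lower in all 3 knockout-labelled libraries, while the other 36 genes had log2 fold changes from -0.15 to 0.10. Changes are log2 fold changes of knockout-labelled over control on the scale log2(normalised count + 1), tested by limma across all 18250 features with a mean of at least 10 and adjusted over all of them. None of the 37 genes was called at an adjusted p under 0.05, against 0.0219% of all features (4 of 18250). At an unadjusted p under 0.05 there were 2 of 37, Atp5a1 and Uqcrfs1, both lower (5.41%, against 3.7% of all features in either direction, 1.98% lower and 1.72% higher). The groups did not overlap in 5 of 37, or 13.5%, near the background of 9.51% of all features. Of these, 3 were higher (4.61% of all features) and 2 lower (4.9%). Of the 37 fold changes, 20 lay above 0 and 17 below, with a median of 0.0046 beside 0.00056 over all features. Scaling to equal library totals, which moved the median of all features to -0.069, put 3 above 0 and 34 below, and equal totals without mtDNA (median of all features 0.028) put 28 above and 9 below. With a library left out, groups fail to overlap more often in all features too: 9 of 37 genes did so without control 490 (19.7% of all features) and 13 of 37 without knockout-labelled 492 (21.4%).

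**Figure D1:**
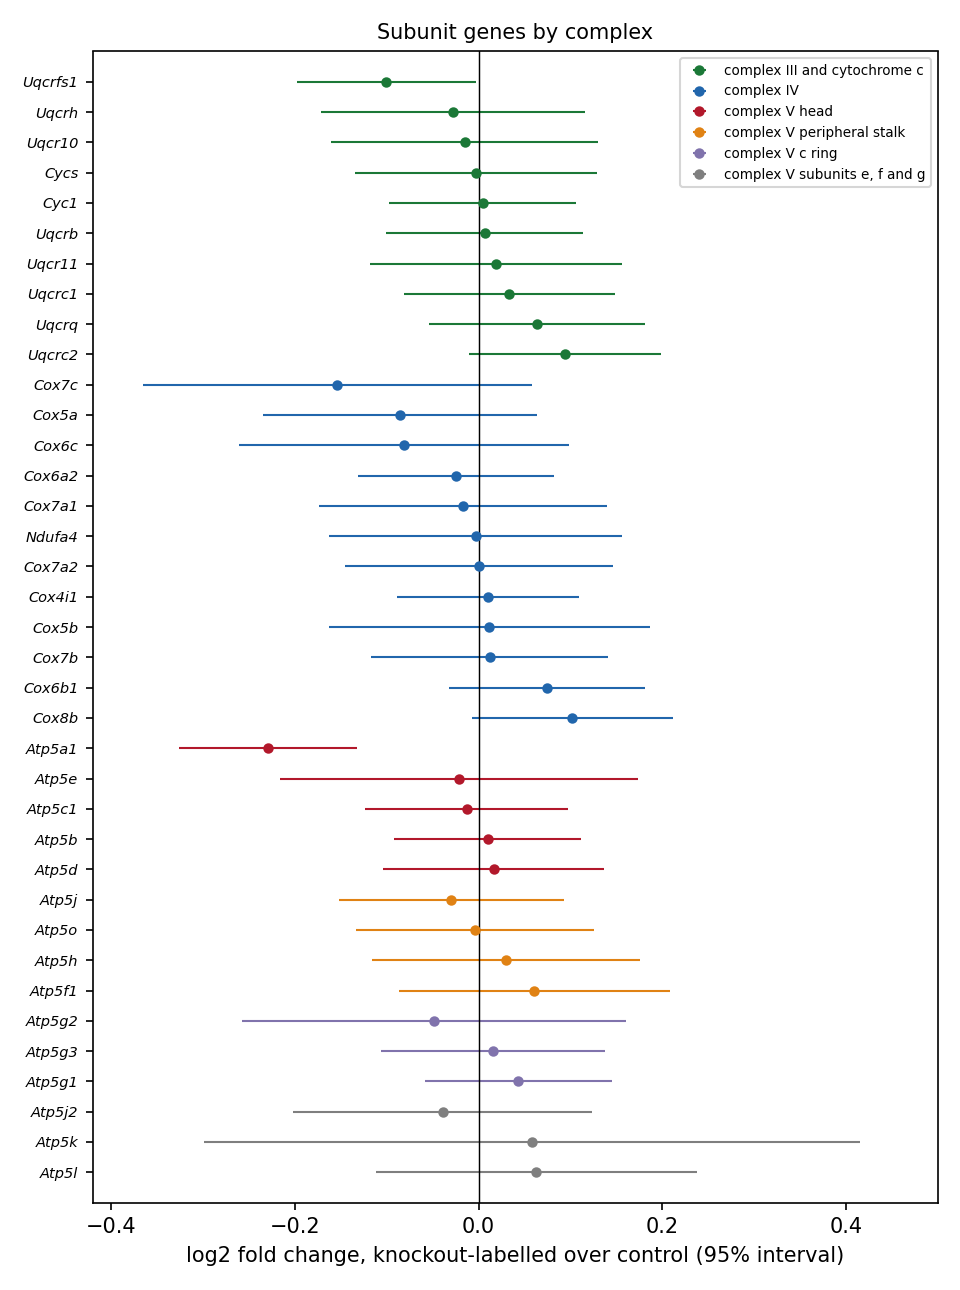
Log2 fold change (x axis, knockout-labelled over control hearts, 3 libraries each) of the 37 genes (y axis), ordered within each complex. Points are limma estimates and bars their 95% intervals; Atp5a1 at -0.23 and Uqcrfs1 at -0.10 are the only ones whose interval does not reach 0.

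Atp5a1 (ENSMUSG00000025428.15, GRCm38.p6 chromosome 18, 77773768 to 77782869) encodes the alpha subunit, which alternates with the catalytic beta subunit in the head. Control 490, 498 and 502 held 34781, 33710 and 32751 normalised counts, and knockout-labelled 492, 499 and 501 held 29016, 27801 and 29564. Values per library are given in this order throughout. Every knockout-labelled library lay below every control library, and the gap between the groups, from 29564 to 32751, was wider than the range within either. The means were 33747 ± 1016 and 28794 ± 902 (SD, n = 3), a difference of -14.7%. On the log2 scale the difference was -0.23 (SE 0.045, 95% interval from -0.33 to -0.13). By p-value it ranked 18 among the 18250 features in limma, with an adjusted p of 0.176. In the authors' deposited table, Atp5a1 stood at -0.23 (adjusted p = 0.00347), the 1 call among the 36 of these genes given an adjusted p. Of the 7550 features given one there, 0.437% were called in either direction and 0.384% lower. DESeq2 on the reads recovered from the deposited values gave an adjusted p of 0.00347 as well and the same 0.437% and 0.384% of features. It repeats the authors' test on the same reads and is no separate support. On those reads, edgeR's quasi-likelihood test called 0 of 37 (0.0274% of all features). That test gave Atp5a1 an adjusted p of 0.323. Equal totals gave a limma adjusted p of 0.0108 at -0.30. Under equal totals the median of all features was -0.069 and 34 of the 37 genes lay below 0. The share of all features called under equal totals is not given here. The mtDNA share of reads, which enters that scaling, differed between the groups as given above. Over 19 alternatives the log2 fold change ran from -0.30 to -0.20. Haus1, a gene that overlaps Atp5a1 in the RefSeq annotation, held from 46.2 to 61.1 counts with overlap between the groups.

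Beta and the central stalk showed no such gap. Atp5b (ENSMUSG00000025393.12, chromosome 10, 128083307 to 128090388), which encodes the beta subunit that makes ATP, held 36125, 34613 and 32599 counts in control and 35081, 34080 and 34802 in knockout-labelled hearts. Its groups overlapped fully, with means of 34446 ± 1769 and 34654 ± 516 (SD, n = 3), a log2 fold change of 0.0099 and a 95% interval from -0.092 to 0.11. The genes of the gamma (Atp5c1), delta (Atp5d) and epsilon (Atp5e) subunits of the central stalk had log2 fold changes of -0.013, 0.017 and -0.021, all with overlap. Within each library, Atp5a1 counts per Atp5b count were 0.963, 0.974 and 1.005 in control 490, 498 and 502 and 0.827, 0.816 and 0.85 in knockout-labelled 492, 499 and 501. This ratio, chosen after the values were seen, does not depend on scaling. Its log2 was lower by 0.239 in knockout-labelled hearts (difference -0.239), with no overlap. The exact permutation p was 0.1, 2-sided, the smallest that 3 against 3 libraries can give. Because of how the ratio was chosen, this p adds no support to the Atp5a1 difference.

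**Figure D2:**
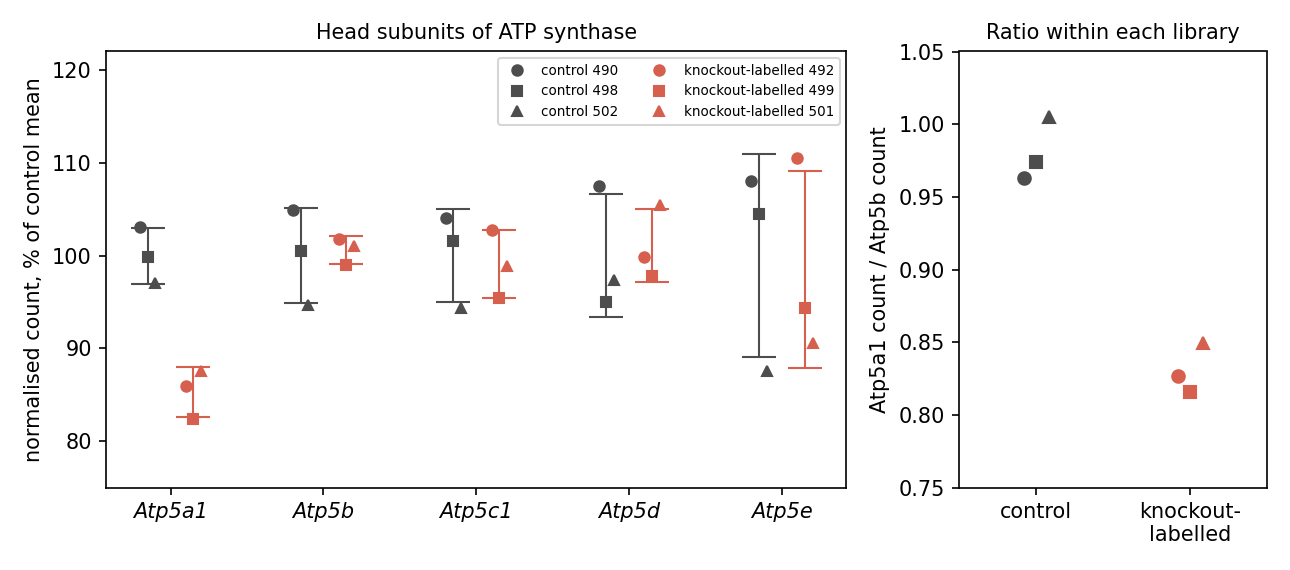
Left, normalised counts of the 5 head genes in each library as a percentage of the gene's control mean (the y axis starts at 75%; symbols are libraries, bars mean ± SD, n = 3 per group); right, Atp5a1 counts divided by Atp5b counts in each library (the y axis starts at 0.75). Only Atp5a1 separates the groups among the 5 genes, and its ratio to Atp5b lies from 0.963 to 1.005 in control and from 0.816 to 0.85 in knockout-labelled hearts.

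The 10 genes of the membrane part gave a median log2 fold change of 0.023, from -0.048 to 0.063, and in none were the groups apart. The median turned to -0.032 without knockout-labelled 492, to -0.020 without control 502 and to -0.047 under equal totals. Those of the peripheral stalk, which holds the head still, were Atp5f1 (subunit b, 0.061), Atp5h (subunit d, 0.029), Atp5j (coupling factor 6, -0.029) and Atp5o (the oligomycin sensitivity protein, -0.0036). Atp5f1, the stalk gene of smallest p, held 4349, 3979 and 3972 counts in control and 4825, 4068 and 3974 in knockout-labelled hearts. Only knockout-labelled 492 lay above the controls, and without it the fold change was -0.027. The 3 genes of the c subunit encode the same mature protein behind different targeting sequences, and Atp5g1, Atp5g2 and Atp5g3 had log2 fold changes of 0.043, -0.048 and 0.016. Atp5g1 held 4730, 4489 and 4663 counts in control and 4675, 4664 and 4971 in knockout-labelled hearts, again with overlap. Subunits e (Atp5k), f (Atp5j2) and g (Atp5l), which sit in the membrane where ATP synthases pair, had 0.058, -0.039 and 0.063, with Atp5l at 1134, 929 and 905 against 1077, 1023 and 986 counts. Subtracting the average log2 value of the membrane part from that of the head, library by library, gave 2.478, 2.451 and 2.424 in control and 2.312, 2.397 and 2.456 in knockout-labelled hearts, with overlap (difference of means -0.062). This difference was -0.024 without knockout-labelled 492 and -0.096 without knockout-labelled 501. Without Atp5a1 in the head it was -0.017 over all 6 libraries.

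In complex III and cytochrome c, the groups did not overlap in 2 of 10 genes, or 20%, beside 9.51% of all features. They were the gene of the Rieske protein, lower, and that of a core subunit, higher, and limma called neither. Uqcrfs1 (ENSMUSG00000038462.3, chromosome 13, 30540312 to 30545316), which encodes the Rieske iron-sulfur protein, held 9687, 9394 and 9867 counts in control and 9068, 8639 and 9305 in knockout-labelled hearts. The groups did not overlap, but the gap was only from 9305 to 9394. The fitted difference was -0.10 (SE 0.045, 95% interval from -0.20 to -0.0027), with a limma adjusted p of 1.00. Uqcrc2 (ENSMUSG00000030884.12, chromosome 7, 120635189 to 120659523, overlapping Pdzd9 in RefSeq), a core subunit, held 3789, 3648 and 3508 counts in control and 4022, 3835 and 3823 in knockout-labelled hearts, a log2 fold change of 0.094 with an interval from -0.011 to 0.20. Its partner core subunit Uqcrc1 was at 0.034, with overlap. Cytochrome c1 (Cyc1) was at 0.0046 and cytochrome c (Cycs) at -0.0029, and the 5 small subunits ran from -0.028 for Uqcrh, the hinge protein, to 0.064 for Uqcrq. The median of the 10 genes was 0.0056, and that of the complex IV genes -0.0014.

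Complex IV had 2 of 12 genes whose groups did not overlap, or 16.7%, beside 9.51% of all features. Both were higher in knockout-labelled hearts, the direction of 4.61% of all features. Cox8b (ENSMUSG00000025488.9, chromosome 7, 140898942 to 140900446), the heart and muscle isoform of subunit 8, held 2545, 2546 and 2368 counts in control and 2743, 2612 and 2649 in knockout-labelled hearts. The log2 fold change was 0.10 with a 95% interval from -0.0075 to 0.21, and the limma adjusted p 1.00. Cox6b1 (ENSMUSG00000036751.7, chromosome 7, 30616971 to 30626114), a subunit of the face that meets cytochrome c, held 2415, 2244 and 2338 against 2434, 2452 and 2480 counts, at 0.075 with an interval from -0.032 to 0.18. The other 10 genes overlapped, from Cox7c at -0.15, Cox5a at -0.086 and Cox6c at -0.081 to Cox5b and Cox7b at 0.012, with Cox4i1 at 0.010, Cox7a2 at 0.00035, Ndufa4 at -0.0031, Cox7a1 at -0.017 and Cox6a2 at -0.025. Ratios of muscle to general isoforms, and of Cox4i1 to Cox4i2, were compared by an exact permutation test. With 3 libraries per group its p cannot go below 0.1, so it could not have called a difference at 0.05. The log2 ratio differed by -0.039 for Cox6a2 to Cox6a1 (exact permutation p = 0.4), -0.017 for Cox7a1 to Cox7a2 (0.6), 0.048 for Cox8b to Cox8a (0.8) and -0.10 for Cox4i1 to Cox4i2 (0.8), each with overlap and at 0.8 when adjusted over the 4 pairs.

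For most of these genes, libraries of a group differed by more than the group means did. On the log2 scale, the wider of the ranges within a group exceeded the difference between the groups in 36 of 37 genes, all but Atp5a1. On the count scale Cox8b, close to that limit, was an exception too. The same share over all features is not given here, so the count does not set these genes apart. The highest library was from 1.055 times (Uqcrb) to 1.692 times (Atp5k) the lowest. Knockout-labelled 492 held the highest value of 18 genes and lay above the 6-library mean in 31, with a median deviation of 0.091 log2 units. Control 490 lay above it in 31 as well (0.051) and control 498 in 22 (0.012), whereas control 502 did so in 6 (-0.055), knockout-labelled 499 in 7 (-0.045) and knockout-labelled 501 in 13 (-0.043). Over all features tested the median deviation was at most 0.0036 in any library, a value that the scaling of the counts holds near 0, so it is no test of these shifts. Complex IV genes stood at a median of 0.13 in knockout-labelled 492 and -0.082 in 501. Each group thus holds libraries on both sides of the mean. The direction of the median followed single libraries: it was -0.040 without knockout-labelled 492, -0.027 without control 502 and 0.030 without knockout-labelled 499.

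**Figure D3:**
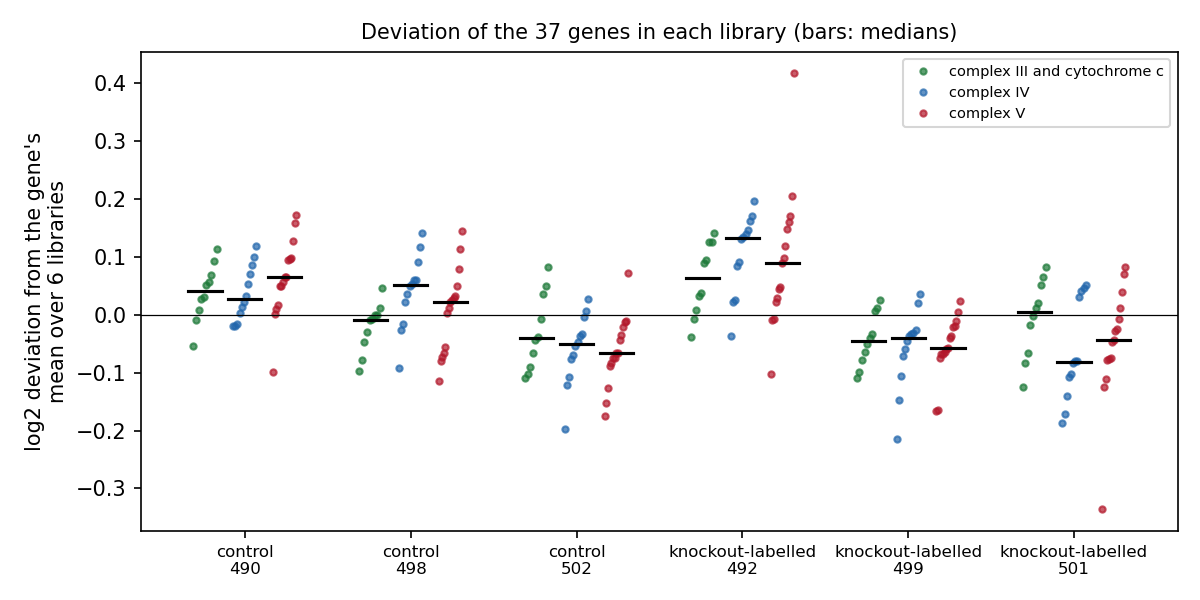
Each point is 1 of the 37 genes in 1 library (x axis), plotted as its log2 deviation from the gene's mean over the 6 libraries (y axis), in columns for complexes III, IV and V with bars at the medians. Points of knockout-labelled 492 lie mostly above 0 and those of control 502 and knockout-labelled 499 mostly below, while 490 and 492, the highest libraries, belong to different groups.

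Many reads were counted on pseudogene copies of these genes, sequences elsewhere in the genome that mostly arose by reverse transcription of the mRNA. Counts here are not scaled by length and show only where reads were placed. Of the 37 genes, 8 had a named copy with reads in every library that added over 1% to the count, and in 7 of these the copies held more counts than the gene. The Cox5b gene held a mean of 1483 counts against 7534 on Gm11273, which RefSeq names Cox5b-ps. Atp5f1 held 4195 against 8719 on Gm12231 (Atp5pb-ps in RefSeq), Atp5k 129.9 against 2426 on Atp5k-ps2, Uqcrh 2183 against 4209 on Uqcrh-ps2, and Cox6c 1409 against 6113 on Cox6c2. Cox6c2 and Atp5l2-ps were added to the copies after their values were seen, and the counts of 8 and 7 rest on them. The name of Cox6c2 does not mark it as a pseudogene, and whether it is one was not checked. Without them Cox6c would have no named copy. Atp5l (1009 counts) would hold more than its other copies, Atp5l-ps1 (297.1) and Atp5l-ps2 (40.6). The sums of Cox6c and Atp5l given below include them. The labels do not say how reads matching both a gene and its copy were assigned, so the counts of Cox5b, Cox6c, Cox7c, Uqcrh, Atp5c1, Atp5f1, Atp5k and Atp5l are uncertain. With each gene and its copies summed before the whole-table limma fit, the 8 log2 fold changes lay between -0.023 and 0.052, and 0 had an unadjusted p under 0.05. Cox7c moved from -0.15 to -0.023 and Cox6c from -0.081 to -0.0041. The sums also varied less over the 6 libraries than the genes alone in 7 of the 8. In knockout-labelled 492 the 8 genes lay 0.16 above their means at the median and their 11 copies 0.037, whereas the 29 other genes lay 0.084 above. No feature named as a copy of Atp5a1 was found by the same search of names, and copies under unrelated names were not searched for.

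**Figure D4:**
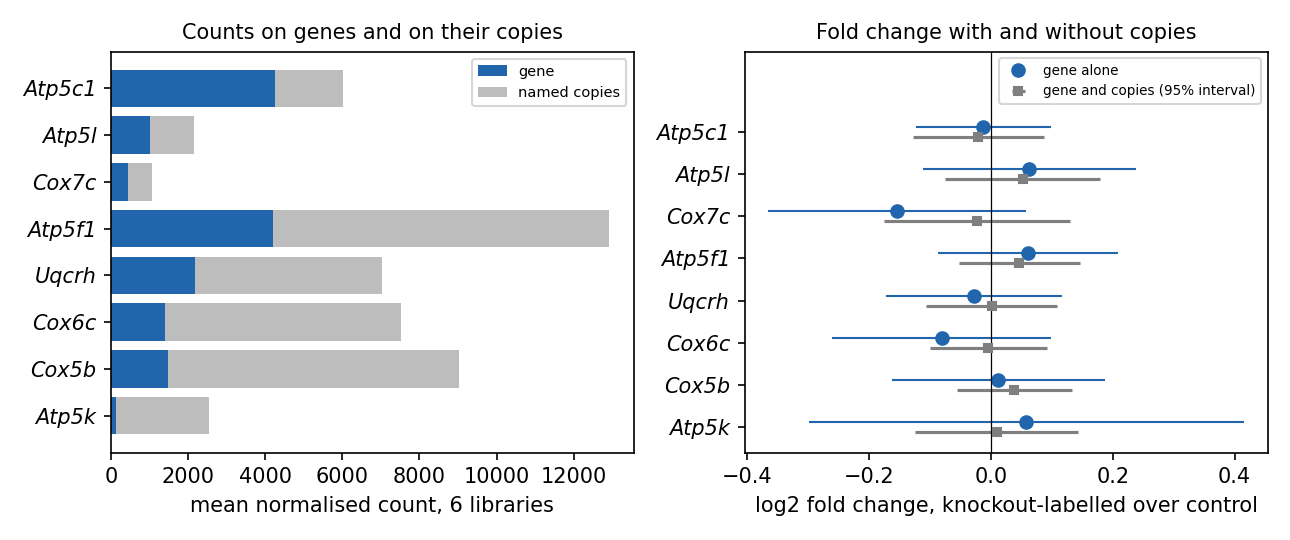
Left, mean normalised count over the 6 libraries on each gene (blue) and on its named copies (grey); right, log2 fold change of knockout-labelled over control for the gene alone and for the gene and copies summed, with 95% intervals. Copies hold most of the counts in 7 of the 8 genes, and the summed fold changes lie closer together, from -0.023 to 0.052. The 7 and the 8 rest on Cox6c2 and Atp5l2-ps, which were added as copies after their values were seen.

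The mtDNA-encoded partners had log2 fold changes from -0.041 to 0.086 in the same libraries. Of the 5 features tested, cytochrome b of complex III (mt-Cytb) was the 1 whose groups did not overlap, with 553760, 560698 and 571708 counts in control and 590094, 584057 and 615831 in knockout-labelled hearts (log2 fold change 0.086, 95% interval from -0.044 to 0.22). Complex IV subunits mt-Co1, mt-Co2 and mt-Co3 were at -0.021, -0.041 and -0.034, and mt-Atp8_6 of complex V at 0.0058. Library by library, the average log2 value of the nuclear genes less that of the mtDNA partners differed between the groups by -0.078 in complex III, 0.020 in complex IV and -0.012 in complex V, with overlap each time. Leaving out 1 library moved complex III between -0.11 (without knockout-labelled 492) and -0.046 (without control 490), complex IV between -0.0078 (without 492) and 0.042 (without control 498), and complex V between -0.039 (without control 502) and 0.023 (without control 490).

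Other genes of the pathway, these 5 included, gave 0 limma calls among 93 tested. Over all features tested, 3.7% had an unadjusted p under 0.05 and 9.51% had groups that did not overlap. Of 32 assembly factors of complexes III, IV and V, 1 had an unadjusted p under 0.05, the complex IV factor Cox14, which held 799.7, 747.4 and 772.3 counts in control and 703.1, 668.4 and 705.1 in knockout-labelled hearts (log2 fold change -0.16, 95% interval from -0.30 to -0.022). The groups did not overlap in 4 of the 32 assembly factors, 2 higher and 2 lower, Cox14 among them. Atpaf1, a chaperone of the beta subunit, was higher at 0.12 (95% interval from -0.010 to 0.25), as was Taco1 at 0.083. Coa5 was lower at -0.089. Complex II had 1 of 4 at an unadjusted p under 0.05, Sdha at -0.11 with overlap, and nuclear complex I had 0 of 36, with a median of 0.018 and Ndufs3 the 1 gene without overlap, at 0.074. Among 8 transcriptional regulators of respiratory genes, Pprc1 was at -0.24 with overlap (95% interval from -0.46 to -0.017), the 1 gene at an unadjusted p under 0.05, and Nrf1 at -0.11 without. The 8 tested isoforms, extra subunits and inhibitor of the 12 listed had a median of 0.039 and no gene at an unadjusted p under 0.05.

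Promoters are shown for 4 of the genes, since transcription of subunits from many chromosomes is known to be coordinated through shared elements. RefSeq windows of GRCm38.p6, from 250 bases before to 50 after a start, were found for 29 of the 37, the others being Uqcrc2, Uqcrb, Uqcrq, Cyc1, Cox4i1, Cox6a2, Cox6c and Atp5a1. Printed are the 250 bases before the start, 5′ to 3′ on the gene's strand, with motif matches on either strand in capitals. Atp5b is shown as the partner of Atp5a1, Cox6b1 as a gene whose groups did not overlap, and Atp5g2 and Atp5k for a shared site. They lie at chr10:128083057-128083306 (plus strand), chr7:30626115-30626364, chr15:102671048-102671297 and chr5:108434400-108434649 (minus strand).
Atp5b: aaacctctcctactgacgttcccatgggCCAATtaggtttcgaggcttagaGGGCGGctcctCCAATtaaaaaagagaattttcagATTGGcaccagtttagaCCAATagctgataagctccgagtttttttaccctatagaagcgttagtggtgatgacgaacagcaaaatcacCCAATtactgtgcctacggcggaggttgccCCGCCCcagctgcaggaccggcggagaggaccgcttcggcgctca
Cox6b1: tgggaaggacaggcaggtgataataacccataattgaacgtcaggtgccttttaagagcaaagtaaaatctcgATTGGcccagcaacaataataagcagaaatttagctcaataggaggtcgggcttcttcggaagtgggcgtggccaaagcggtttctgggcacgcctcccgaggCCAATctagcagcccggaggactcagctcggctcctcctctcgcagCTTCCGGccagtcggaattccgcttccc
Atp5g2: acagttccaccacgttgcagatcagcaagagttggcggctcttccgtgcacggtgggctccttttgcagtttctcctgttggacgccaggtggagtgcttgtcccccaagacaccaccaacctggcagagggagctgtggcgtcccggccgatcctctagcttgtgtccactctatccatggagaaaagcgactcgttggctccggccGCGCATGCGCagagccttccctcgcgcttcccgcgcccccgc
Atp5k: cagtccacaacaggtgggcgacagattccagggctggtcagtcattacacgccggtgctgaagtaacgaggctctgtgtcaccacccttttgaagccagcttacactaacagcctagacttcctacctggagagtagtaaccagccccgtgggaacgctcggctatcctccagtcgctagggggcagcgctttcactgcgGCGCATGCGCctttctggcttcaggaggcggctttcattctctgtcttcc

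In Atp5b the capitals mark 5 CCAAT boxes (CCAAT) and 2 GC boxes (GGGCGG), and in Cox6b1 2 CCAAT boxes and an ETS site (CCGGAAG), the kind bound by the GABP factor. Atp5g2 and Atp5k each hold the palindrome of nuclear respiratory factor 1 (NRF1), searched with any base at 1 inner position, at 42 to 33 and 50 to 41 bases before the start. No matches of different motifs overlapped in these windows. The background was the 17491 protein-coding genes with a window outside chromosome 18. In the full windows, the NRF1 letters were found in 7 of 29 genes (24.1%) against 7.17% of that background. ETS letters were found in 8 (27.6%) against 12.9%. ERR letters (AAGGTCA) were found in 4 (13.8%) against 4.73%, YY1 letters (AANATGGC) in 5 (17.2%) against 7.46%, GC boxes in 8 (27.6%) against 49.2%, CCAAT boxes in 14 (48.3%) against 42.3% and TATA boxes (TATAAAA) in 2 (6.9%) against 6.01%. These are matches of letters, with no test, and say nothing of binding. The genes with NRF1 letters had a median log2 fold change of 0.016, and the 22 others with a window -0.0013.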

How the data were processed

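The submitters' processing notes name DESeq2 1.22.2 and R 3.5.2, featureCounts, Bowtie2 2.3.4.1 and bedtools, and the builds GRCm38 and mm10. No label or header states their roles, filters or strand setting, so overlapping or antisense genes may share reads. The authors deposited signal per gene as normalised counts, which divided by the worth of 1 read were whole (tolerance 0.01) for 100% of 156689 nonzero values. The deposited DESeq2 table holds log2 fold changes, a Wald score and p-values, used only as given. Symbols were joined by Ensembl identifier to 54686 of 54715 features, and positions are RefSeq GRCm38.p6.

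The main test was limma 3.58.1 (R 4.3.3) on log2(value + 1), trended prior, 2-sided, genotype as the only term, for features with a mean of at least 10, with Benjamini-Hochberg adjustment over all of them at 0.05. Per-library ratios were compared by exact permutation. The scripts were tested on simulated data. Alternatives were 2 pseudocounts, 3 filters, 3 scalings, 2 limma priors, edgeR 4.0.16, DESeq2 1.42.0, the deposited table and leaving out each library. Libraries of a group differed beyond counting error in every pair (chi-square over its degrees of freedom 3.52 to 15.0).

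Members and lists were chosen with earlier results of these data known. Values per library are given for members with an unadjusted p under 0.05, groups that do not overlap, the smallest p of their part, or a call by any tool. A further criterion, level per length, was not applied because no transcript lengths were used here, and levels are not compared between genes.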

Additional observations from a re-analysis of the deposited data

How the results depend on the processing

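No paired analysis was possible because the table's columns carry library numbers and no replicate number. The count of called genes, 0 of 37 in limma, was 1 (Atp5a1) under equal totals, in DESeq2 and in the authors' deposited table. It was 0 in every other setting, including each of the 6 fits that left out a library. DESeq2 and the deposited table are the same test on the same reads, so they are not separate results. Each called 0.437% of the 7550 features given an adjusted p. The share of all features called under equal totals is not given here. Genes whose groups did not overlap numbered 5 to 13 of 37 when 1 library was left out, where the share of all features was 17.6% to 21.4%. Under equal totals the medians were -0.065 for complex III and cytochrome c, -0.071 for complex IV, -0.083 for the complex V head and -0.047 for its membrane part, and 17 of the 37 genes changed sign, among them Atp5f1 (-0.0092), Atp5g1 (-0.027) and Atp5l (-0.0074). With 1 library left out these medians ran from -0.024 to 0.030, -0.061 to 0.035, -0.054 to 0.038 and -0.032 to 0.046. Leaving out 1 library gave -0.027 (without knockout-labelled 492) to 0.11 for Atp5f1. Without 492 the Cox4i1 to Cox4i2 log2 ratio differed by 0.13, and without control 502 that of Cox8b to Cox8a differed by -0.048. The leave-one-out differences ran from -0.048 to 0.13 for Cox8b to Cox8a and from -0.32 to 0.13 for Cox4i1 to Cox4i2. Summed with its copies, an alternative added after the data were seen, Uqcrh turned from -0.028 to 0.0012. Atp5a1 was the lowest of the 37 in 18 of 19 alternatives, all but that without knockout-labelled 492. Its limma adjusted p was 1.00 without a filter or without a trended prior and 0.0566 with a robust prior. In the 6 fits that left out a library its adjusted p lay between 0.204 and 1.00. The median SE of a log2 fold change was 0.060 for the 37 genes, which limits what differences 3 libraries per group can show. Of the 36 other genes, 31 had an interval whose lower end lay above the Atp5a1 estimate, and 5 (Cox5a, Cox6c, Cox7c, Atp5g2 and Atp5k) did not.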
